A study of Mus musculus with 4 samples.

Results

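The cytosolic ribosomal protein genes of mouse liver were read from a table of gene counts by symbol: Rpl or Rps followed by a number and, where present, the letters a, l or x, together with Rpsa, Rplp0, Rplp1 and Rplp2. The rule took in 81 of the 22155 symbols in the table, 50 of them for proteins of the large subunit (60S) and 31 for proteins of the small subunit (40S), and it used no measured value. Messenger RNA had been sequenced from whole liver of 2 groups with 2 libraries each. The gavage group was C57BL/6 wild-type mice, aged 8 to 10 weeks, that were kept for 10 days on a Lieber-DeCarli liquid diet with 5% ethanol and then received 1 dose of ethanol of 5 g per kg body weight by gavage, a tube into the stomach, with the liver taken 9 h later. The group of ethanol alone was mice of the same strain, genotype and age on the same diet, labelled chronic ethanol alone, so both groups carry the chronic ethanol. The protocol text is worded alike for all 4 samples, and the groups rest on the titles and the treatment label. The sources used here give neither sex, nor a control gavage, nor whether libraries came from separate animals. A p-value below therefore speaks only of the spread among these 4 libraries, which may be technical.

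Each cytosolic ribosome joins a small subunit, which holds the messenger RNA and reads its codons, to a large subunit, which makes the peptide bond and lets the new chain out through a tunnel. The ribosomal proteins coat and fold the ribosomal RNA, and they are assembled with it in the nucleolus by a large set of assembly factors that do not stay in the finished ribosome. The messenger RNAs of most ribosomal proteins begin with a terminal oligopyrimidine (TOP) tract, a cytosine followed by an unbroken run of C and T. Through that tract the kinase complex mTORC1 and the RNA-binding protein LARP1 set how well they are translated, a control that need not show in the amount of the messenger RNA. The genes have many processed pseudogenes, intronless copies that are close to the spliced messenger RNA in sequence.

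The sequences at the annotated starts show what the members share. RefSeq promoters of GRCm38.p6 matched 61 of the 81 members, and a TOP-like tract was taken as a C followed by at least 4 bases that were each C or T, on the strand of the gene, with the C within 10 bases of the annotated start. A gene with several annotated starts was counted if any of them held one, and 10 members had more than 1 start. It was found in 38 of the 61 members (62.3%), against 33.3% of all 27025 genes with such a sequence and 36.2% of the tested genes that matched. The windows run from 15 bases before the start to 14 after it, and capitals mark the tract. The first 4 hold one within that limit and the last 2 do not, although Rpl4 and Rplp0 were among the most abundant members. The window shown for Rpl35a is the only 1 of its 3 annotated starts with a tract.
Rps6, chr4:86857353-86857382, minus strand: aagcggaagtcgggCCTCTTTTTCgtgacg
Rplp2, chr7:141447636-141447665, plus strand: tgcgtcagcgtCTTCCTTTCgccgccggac
Rpl35a, chr16:33056467-33056496, plus strand: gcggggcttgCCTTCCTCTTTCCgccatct
Rpl35, chr2:39005117-39005146, minus strand: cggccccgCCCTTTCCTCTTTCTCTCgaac
Rpl4, chr9:64173372-64173401, plus strand: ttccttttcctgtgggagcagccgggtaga
Rplp0, chr5:115559452-115559481, plus strand: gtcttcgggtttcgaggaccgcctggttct
The Rpl4 window does hold a C followed by 8 bases of C or T, but that C lies 13 bases before the start, outside the limit of 10, and 3 members had such a run further out. The count therefore depends on the limit and on the annotated starts. The median log2 fold change, gavage over ethanol alone, was -0.46 over the 35 tested members with a tract and -0.37 over the 23 without, and it was -0.032 and -0.034 without replicate 1 of ethanol alone.

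The second set of sequences shows how unequal the members are in sequence of their own. For each member 1 reference transcript of the GENCODE annotation of GRCm38 was cut into 50-base words, and each word was looked for in the transcripts of all other genes that do not overlap it. A word found elsewhere could come from either gene, and the sources used here do not say how such reads were counted. The 50-base stretches below are coding sequence, numbered from the start codon of the longest open reading frame.
Rps6, coding bases 471 to 520, shared word for word with transcripts of 13 other genes: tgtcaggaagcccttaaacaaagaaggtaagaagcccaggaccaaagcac
Rpl19, coding bases 258 to 307, shared with 11 other genes: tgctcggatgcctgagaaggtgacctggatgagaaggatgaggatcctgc
Rpl4, coding bases 1 to 50, found in 0 other genes: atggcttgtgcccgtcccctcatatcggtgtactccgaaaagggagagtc
Of the 81 members, 78 shared at least 1 such word with another gene, and the median member had 49.4% of its words to itself.

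Depth was similar in the 4 libraries, at 29914491 and 30039731 counts with gavage and 28791281 and 30347558 with ethanol alone. The 81 members took 0.277% and 0.248% of these counts with gavage and 0.402% and 0.264% with ethanol alone. Values below are CPM, counts scaled to library size with TMM factors, and levels are compared between genes only as CPM per kb of the reference transcript. Replicate 1 of ethanol alone stood apart from the other libraries in short transcripts and in the members, so the main results are also given without it. It was singled out from these same values, so a smaller difference without it is no separate evidence. With 2 libraries a group, the data do not show which library of ethanol alone is the unusual one. Without replicate 2 of ethanol alone the median log2 fold change of the members was -0.78. Of the 5 hepatocyte markers, among them Alb at a mean of 98714 CPM, 4 were lower with a median log2 fold change of -0.74 over the 5. In replicate 1 of ethanol alone 4 of the 5 were highest. Without it their median was -0.29. Markers of red cells followed the same library: all 4 were highest in replicate 1 of ethanol alone, none was at 0, and their summed level was 87.4 and 67.0 CPM with gavage against 183 and 87.4 CPM with ethanol alone. All 6 markers of Kupffer cells, the resident macrophages of the liver, were lower in both gavage libraries than in either of ethanol alone, with a summed level of 264 and 286 CPM with gavage against 461 and 453 CPM with ethanol alone, and none was at 0. The part of these cells in the results on ribosomal proteins was not tested. In bulk liver, fewer cells of a type and less RNA per cell cannot be told apart.

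The level of single members spanned a wide range. On the per-kb scale Rpl8, a protein at the peptidyl transferase centre, was highest at 302 CPM per kb over the 4 libraries, and Rpl4, which lines the exit tunnel, at 272.5 and the stalk protein Rplp1 at 232 were also among the highest. The 77 tested members spread over an 829.6-fold range on that scale, with a median of 13.7 CPM per kb over all 81. In plain CPM, 7 members averaged over 100, 40 between 10 and 100, 23 between 1 and 10, and 11 under 1. The 6 most abundant in CPM, among them Rpl4, Rpl8, Rps3, Rplp0 and Rplp1, made up 45.4% of the summed level of all members. Among those under 1 CPM were Rps6, Rpl19, Rpl23a and Rps23, all of them proteins of every ribosome, at 0.553 to 0.706 CPM per kb. Rps6 had 20 and 19 counts with gavage and 13 and 6 with ethanol alone.

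Low levels tended to go with shared sequence, with clear exceptions. The 40 members with at least 50% of their words to themselves had a median of 33.6 CPM per kb, against 7.92 for the 41 below that share, and across the 81 members Spearman's rho between the unique share and CPM per kb was 0.33. Rps6 had a unique share of 15.4% and shared words with 14 pseudogenes. Rpl10 had 7.87% and Rpl9 6.68%, while Rpl8 had 92.1%. The members share the same 4 libraries and depth, so these values describe the table and carry no test. The level of a member with a low share is therefore uncertain.

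**Figure D1:**
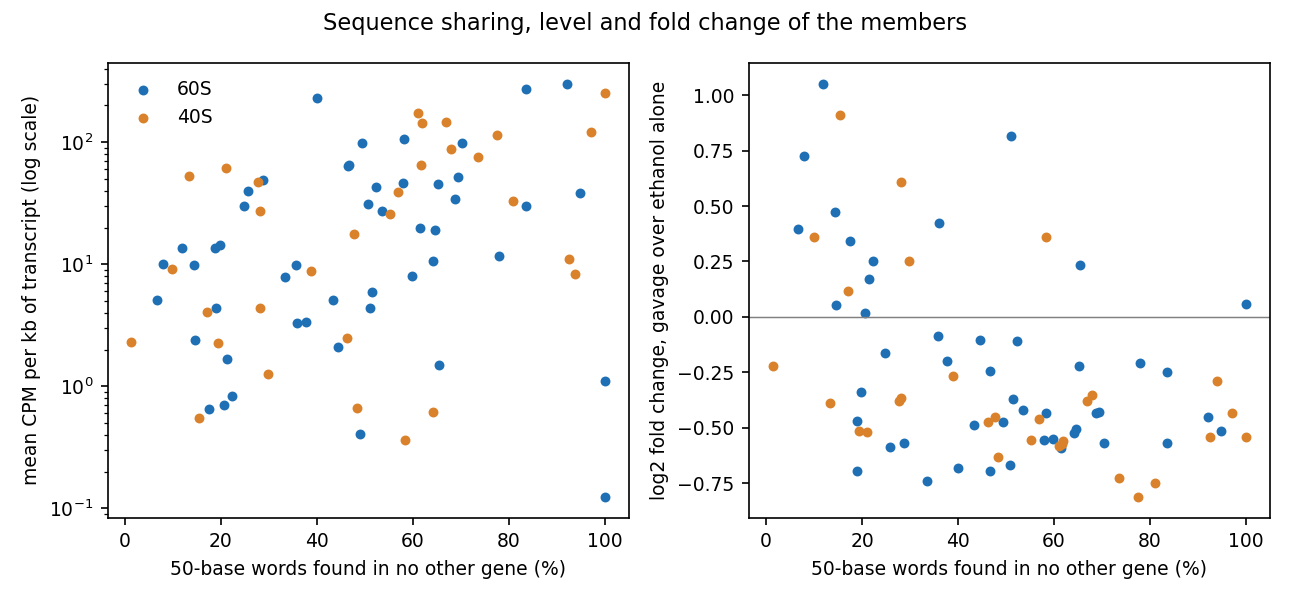
The left panel plots the mean level of each member (CPM per kb of transcript, log scale) against the percentage of its 50-base words found in no other gene, and the right panel plots the fitted log2 fold change, gavage over ethanol alone, against the same percentage. Points are members, blue for 60S and orange for 40S. The members with the largest positive fold changes lie mostly at low unique shares, among them Rpl10a at 11.9% and Rps6 at 15.4%.

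Most ribosomal protein messenger RNAs lay lower after the gavage, but the difference rested on 1 library of ethanol alone. The summed level of the members was 2640 and 2473 CPM with gavage, against 4233 and 2643 CPM with ethanol alone. The means were 2557 ± 118 and 3438 ± 1124 CPM (SD, n = 2 each), a log2 ratio of -0.43. Replicate 1 of ethanol alone was the high one, at 1.60 times replicate 2, and the gavage mean was 0.967 of replicate 2. Replicate 2 of ethanol alone thus lay beside the 2 gavage libraries, just above the higher of them. Without replicate 1 of ethanol alone the log2 ratio was -0.073.

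Gene by gene, 58 of the 77 tested members had a negative fitted log2 fold change and 19 a positive one, with a median of -0.42 against 0.021 over all 13309 tested genes. In the edgeR quasi-likelihood test, with p adjusted by Benjamini-Hochberg over all tested genes, 0 members and 0% of all genes passed, and the smallest adjusted p of a member was 0.153. At an unadjusted p under 0.05, 2 members were higher and 1 lower, against 8.91% and 9.85% of all tested genes. limma-voom called 0 members and 0% of all genes, and the edgeR likelihood-ratio test called 0 members and 4.13% of all genes. DESeq2 called 1 member higher and 1 lower, against 3.94% and 4.9% of all tested genes. The gavage libraries lay above both libraries of ethanol alone in 10 members and below both in 28, against 27.5% and 27.2% of tested genes. Of these counts only the 28 of 77 lay above the share among all tested genes.

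Replicate 1 of ethanol alone was the highest of the 4 libraries in 60 of the 77 tested members (77.9%), against 31.6% of all tested genes. Per library, the median deviation of the members from their own means, in log2(CPM + 0.5), was -0.12 and -0.22 with gavage and 0.50 and -0.17 with ethanol alone. The median log2 ratio of replicate 1 to replicate 2 was 0.082 within gavage and 0.64 within ethanol alone, so the libraries of ethanol alone differed from each other by more than the groups did. Without replicate 1 of ethanol alone the median log2 fold change was -0.045, with 34 members higher and 43 lower. In that fit 5 members reached an unadjusted p under 0.05, 4 of them higher and 1 lower, against 5.36% and 7.55% of all tested genes. Without replicate 2 of ethanol alone the median was -0.78 and 47 members reached it, against 25.7% of all tested genes. Without replicate 2 of gavage 1 member reached it, against 11%. No member passed the adjusted threshold in any of the 4 fits that left out 1 library.

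**Figure D2:**
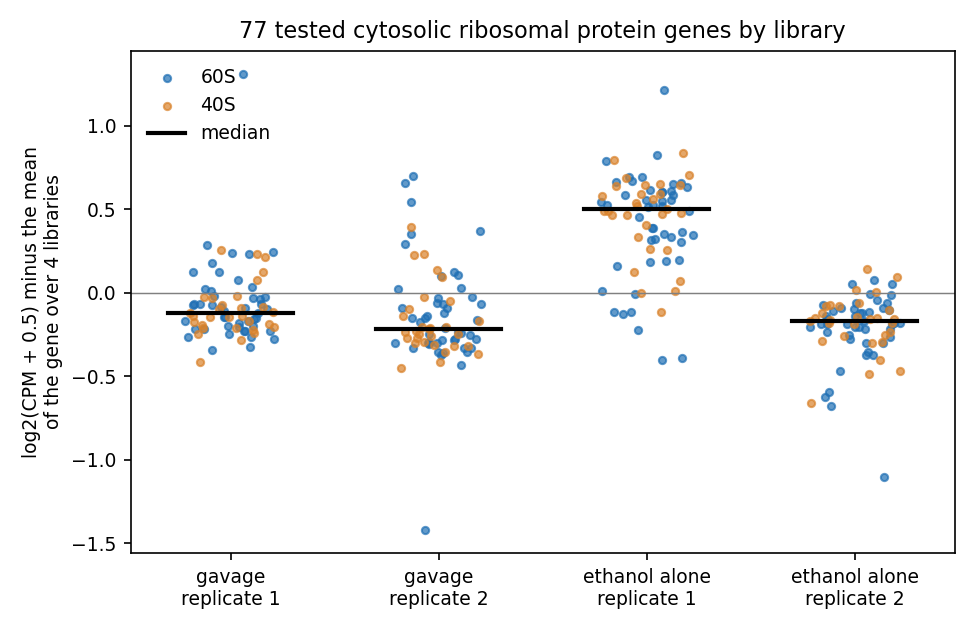
Each point is 1 of the 77 tested members in 1 library, plotted as log2(CPM + 0.5) minus the mean of that gene over the 4 libraries; bars are medians, blue points 60S and orange points 40S. The medians are -0.12 and -0.22 in the gavage libraries and 0.50 and -0.17 in those of ethanol alone, and replicate 1 of ethanol alone lies above the other 3.

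The members are short, and short transcripts of all kinds followed the same library. The median reference transcript was 775 nt for the members and 2859 nt for all tested genes with a length, and 59 of the 81 members were under 1000 nt. Over the 163 tested genes of up to 600 nt the median log2 fold change was -0.56 and 83.4% were lower, and the 23 members among them had a median of -0.51. From 601 to 1000 nt the median was -0.40 over 657 genes and -0.38 over 33 members. From 1001 to 2000 nt it was -0.18 over all genes and -0.24 over 17 members. From 2001 to 4000 nt it was 0.027 over all genes and -0.52 over 3 members, and above 4000 nt it was 0.20 over all genes, with Rps15a the 1 member at -0.29. In the 2 shortest ranges the members therefore lay close to the median of all genes of their length, while the 4 members above 2000 nt lay below it. The place of these 4 rests on the reference transcript chosen, 5130 nt for Rps15a, and the transcripts present in liver may be shorter. They therefore do not show that long members depart from the trend. Genes of up to 600 nt deviated by -0.20 and -0.23 with gavage and by 0.47 and -0.031 with ethanol alone, the same high library as in the members.

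An offset that removed, within each library, the trend of counts with transcript length and GC content left a median log2 fold change of -0.022 over the members, with 37 higher and 40 lower. With the offset, an unadjusted p under 0.05 was reached by 6 members on the higher side and 1 on the lower, against 9.21% and 9.64% of all tested genes, and again 0 passed the adjusted threshold. With the offset and without replicate 1 of ethanol alone the median was 0.011. Length and GC content were removed together and were not tested one by one.

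**Figure D3:**
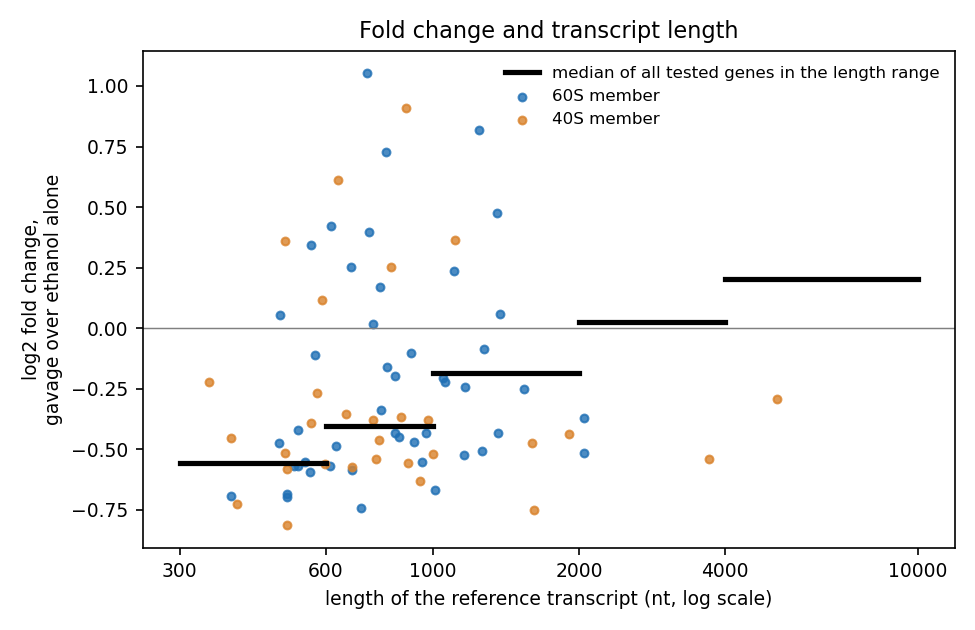
Fitted log2 fold change, gavage over ethanol alone, of each tested member against the length of its reference transcript in nt (log scale), with blue points for 60S and orange points for 40S. Black bars are the medians of all tested genes in 5 ranges of length, from -0.56 up to 600 nt to 0.20 above 4000 nt; the members up to 1000 nt scatter around the bars of their ranges and the 4 above 2000 nt lie below theirs.

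Level divided the members more sharply than subunit did. Of the 47 members with a mean of at least 10 CPM, 46 were lower and only Rpl3 was higher, with a median log2 fold change of -0.47. That split depends on the cut, since Rpl10a, with a fold change of 1.05, fell just under it at a mean of 9.99 CPM. The 30 tested members under 10 CPM had 12 lower and 18 higher, with a median of 0.087. Among all tested genes of at least 10 CPM and up to 1000 nt, 85.4% were lower with a median of -0.48, and the 31 members of that class were all lower with a median of -0.52. Among those under 10 CPM and up to 1000 nt, 68.2% of all tested genes were lower, and 11 of 25 members were. Without replicate 1 of ethanol alone, 33 of the 47 were lower with a median of -0.097, and 10 of the 30 were lower with a median of 0.38. The 47 tested 60S members had a median of -0.37 and the 30 tested 40S members one of -0.44, so the subunits lay close together, and without replicate 1 of ethanol alone the medians were -0.045 and -0.041. The summed level was 1542 and 1452 CPM with gavage against 2386 and 1505 CPM with ethanol alone for 60S, and 1098 and 1021 CPM against 1846 and 1138 CPM for 40S.

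**Figure D4:**
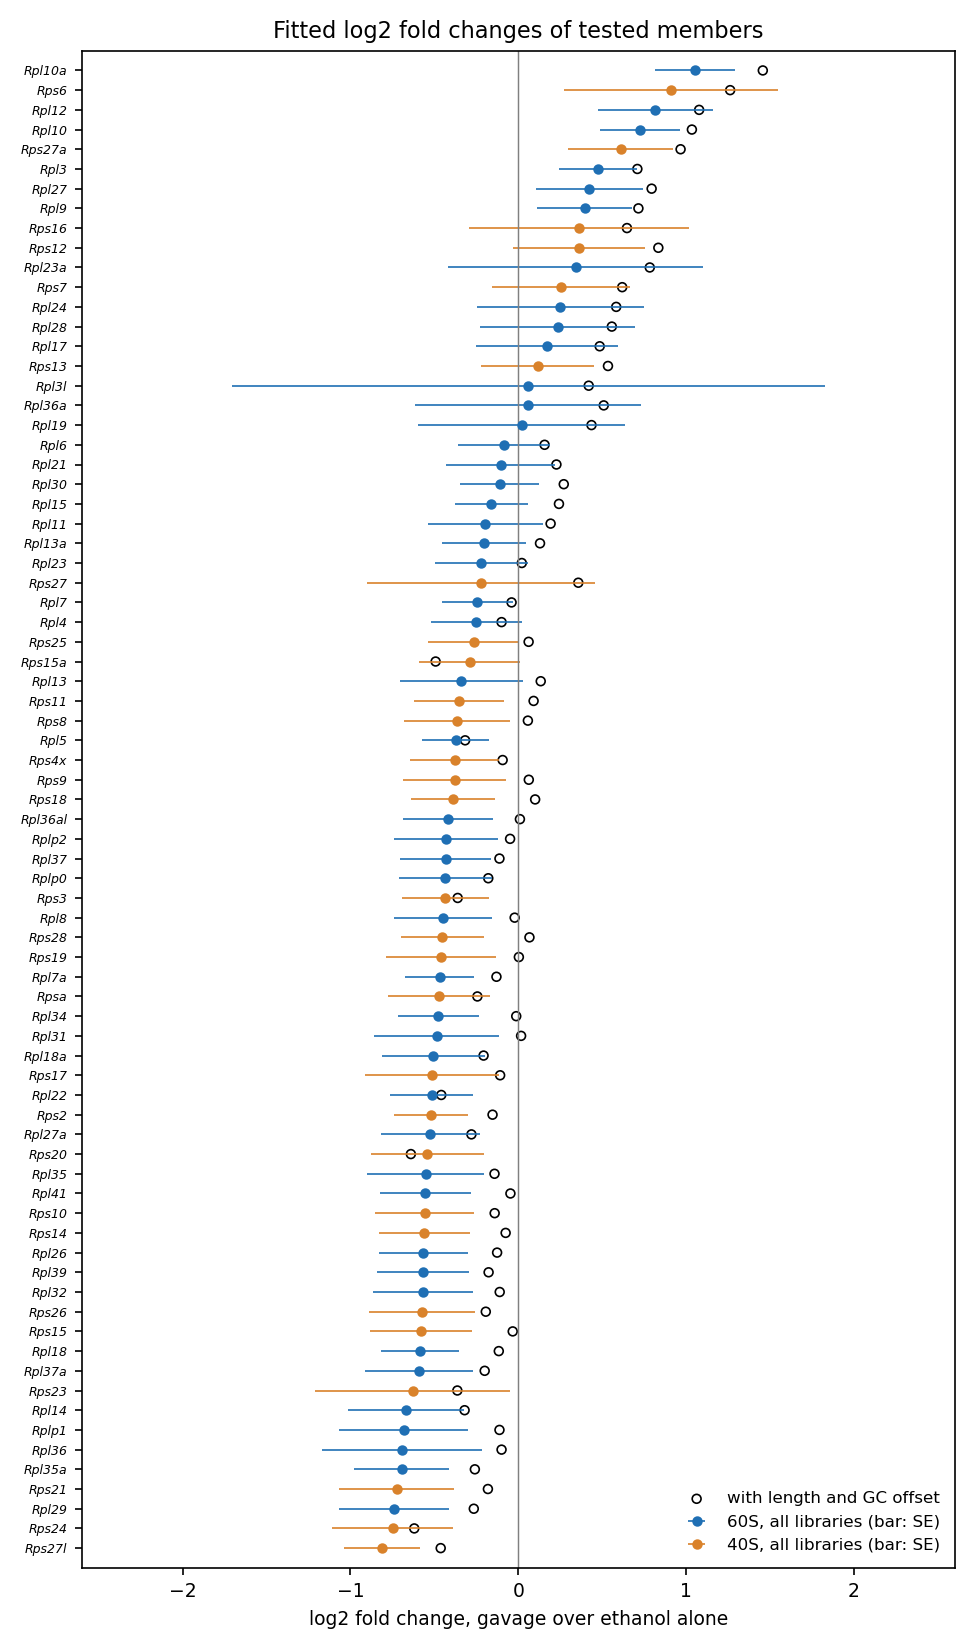
Filled points are the fitted log2 fold changes, gavage over ethanol alone, of nearly all tested members with their SE as bars (blue 60S, orange 40S); open circles are the values with the length and GC offset. The filled points run from 1.05 for Rpl10a to -0.81 for Rps27l, and the open circles lie to the right of nearly all of them; over all 77 tested members their median is -0.022.

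The stalk proteins recruit the translation factors to the large subunit. Rplp0, which anchors the stalk (chromosome 5, 115559467 to 115563727), had 128.5 and 119 CPM with gavage, against 204 and 131 CPM with ethanol alone, a log2 fold change of -0.43 (SE 0.28). Rplp1 had 97.2 and 80.35 CPM with gavage, against 193 and 92.3 CPM with ethanol alone. Rplp2 had 47.2 and 37.5 CPM with gavage, against 72.5 and 41.6 CPM with ethanol alone. The 3 genes showed 1 pattern, with replicate 1 of ethanol alone high and replicate 2 near or among the gavage libraries. Without replicate 1 of ethanol alone their log2 fold changes were -0.10, -0.081 and 0.00050 in the order given.

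Around the exit tunnel, where the new chain leaves the large subunit, 6 of 9 members were lower, and none had an unadjusted p under 0.05. Rpl4 (chromosome 9, 64173375 to 64178666) had 393 and 373 CPM with gavage, against 541 and 369.5 CPM with ethanol alone, so that replicate 2 of ethanol alone lay below both gavage libraries. Rpl22, an RNA-binding protein near the tunnel exit, had 66.7 and 63.5 CPM with gavage, against 111 and 75.0 CPM with ethanol alone, a log2 fold change of -0.52. Rpl26, which sits near the mouth of the tunnel and in human cells also binds the messenger RNA of p53, had 21.2 and 20.4 CPM with gavage, against 38.3 and 23.4 CPM with ethanol alone. In Rpl22 and Rpl26 the groups did not overlap, although the gap to replicate 2 of ethanol alone was small, and without replicate 1 their fold changes were -0.23 and -0.19. Rpl39 had a log2 fold change of -0.57, Rpl35 one of -0.55 and Rpl31 one of -0.49, the last at 2.46 to 4.80 CPM. Rpl17, Rpl19 and Rpl23a were at 0.165 to 1.501 CPM and had fold changes of 0.17, 0.019 and 0.34, each smaller than its SE.

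The 5S particle, in which Rpl5 and Rpl11 carry the small 5S RNA and can also bind Mdm2, the ubiquitin ligase of p53, had both genes on the lower side, at unadjusted p above 0.05. Rpl5 had 9.84 and 11.1 CPM with gavage, against 14.8 and 12.4 CPM with ethanol alone. The groups did not overlap in Rpl5, and its log2 fold change of -0.37 was -0.32 with the length and GC offset and -0.26 without replicate 1 of ethanol alone. Rpl11 had 2.48 and 2.69 CPM with gavage, against 3.62 and 2.31 CPM with ethanol alone. The groups overlapped in Rpl11, and its log2 fold change of -0.20 turned to 0.19 with the length and GC offset and to 0.14 without replicate 1 of ethanol alone.

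In the small subunit, the proteins of the messenger RNA channel and the decoding site were lower in 4 of 4 cases, at unadjusted p above 0.05. Rps3, at the entry of the channel (chromosome 7, 99477896 to 99483738), had 206 and 188 CPM with gavage, against 314 and 217 CPM with ethanol alone, a log2 fold change of -0.43 (SE 0.26). Rps2, beside it, had 49.7 and 52.0 CPM with gavage, against 84.6 and 61.2 CPM with ethanol alone. Rps15, which reaches the decoding site with its tail, had 73.4 and 64.5 CPM with gavage, against 130 and 75.95 CPM with ethanol alone. In each of these 3 both libraries of ethanol alone lay above both gavage libraries, and in each the first of them lay far above the second. Without that library the fold changes of Rps3, Rps2 and Rps15 were -0.17, -0.29 and -0.16. Rps23 was at 0.446 to 1.02 CPM, with overlapping groups.

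At the exit of the channel Rps14 had 69.6 and 68.4 CPM with gavage, against 125 and 78.4 CPM with ethanol alone. Rps26, which touches the messenger RNA upstream of the start codon, had 37.35 and 34.0 CPM with gavage, against 68.9 and 37.3 CPM with ethanol alone. The groups overlapped in Rps26 and were apart in Rps14. The fold change of Rps14, -0.56, was -0.21 without replicate 1 of ethanol alone and -0.076 with the length and GC offset. Rps28 had 6.08 and 5.28 CPM with gavage, against 8.93 and 6.64 CPM with ethanol alone, with the groups apart. Its fold change of -0.45 was -0.25 without replicate 1 of ethanol alone and turned to 0.066 with the length and GC offset.

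Several ribosomal proteins have functions known outside the ribosome, and these did not move as a group: 3 of 8 were higher and 5 lower. Rpsa, the laminin receptor, had 3.50 and 3.19 CPM with gavage, against 5.60 and 3.70 CPM with ethanol alone. Rpl13a, part of an inhibitor of inflammatory messenger RNAs in macrophages, had 10.9 and 11.8 CPM with gavage, against 15.7 and 10.5 CPM with ethanol alone. Rps19, mutated in human Diamond-Blackfan anaemia, had 27.8 and 23.5 CPM with gavage, against 46.2 and 24.4 CPM with ethanol alone. The groups overlapped in Rpl13a and Rps19, and both fold changes, -0.21 and -0.46, turned positive without replicate 1 of ethanol alone, at 0.082 and 0.045. Rps4x had a fold change of -0.38 and Rpl41, a very short basic peptide, one of -0.55.

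Rps27l had the most negative fold change of the members and differed from the rest in that replicate 2 of ethanol alone also stood well above the gavage libraries. It is a paralog of Rps27 that is known as a target of p53. Rps27l (chromosome 9, 66946086 to 66949516) had 40.7 and 42.2 CPM with gavage, against 85.2 and 60.4 CPM with ethanol alone. The log2 fold change was -0.81 (SE 0.23), with an unadjusted p of 0.0143 and an adjusted p of 0.192 in the edgeR quasi-likelihood test. DESeq2 gave an adjusted p of 0.0280. The value was -0.46 with the length and GC offset and -0.57 without replicate 1 of ethanol alone, where the median member was at -0.045. Rps27l had 77.6% of its words to itself, and whether it differs from the other members was not tested.

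The next lowest were Rps24 at -0.75, Rpl29 at -0.74, Rps21 at -0.73, Rpl35a at -0.70 and Rpl36 at -0.69. Rps24 had 42.0 and 37.1 CPM with gavage, against 89.3 and 43.7 CPM with ethanol alone. Rps21 had 24.6 and 20.5 CPM with gavage, against 49.2 and 25.3 CPM with ethanol alone. Rpl35a had 25.35 and 23.4 CPM with gavage, against 49.75 and 29.2 CPM with ethanol alone. In these 3 the groups did not overlap, and replicate 1 of ethanol alone carried most of the distance. Without it the 5 fold changes lay between -0.31 and -0.10. Rpl29 and Rpl36 were lower-level genes, at 4.09 to 8.97 CPM and at 1.18 to 2.82 CPM.

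The largest positive fold change was that of Rpl10a, a 60S protein of the side stalk that handles the tRNA leaving the ribosome. Rpl10a (chromosome 17, 28328471 to 28331033) had 11.5 and 15.5 CPM with gavage, against 6.99 and 6.01 CPM with ethanol alone. Both gavage libraries lay above both of ethanol alone, and replicate 1 of ethanol alone was close to replicate 2. The log2 fold change was 1.05 (SE 0.24), with an unadjusted p of 0.00612 and an adjusted p of 0.153 in the edgeR quasi-likelihood test, and DESeq2 gave 0.0175. The value was 1.46 with the length and GC offset and 1.14 without replicate 1 of ethanol alone. Only 11.9% of its words were its own, so its reads could also have come from 5 pseudogenes.

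Rpl10, which joins the large subunit late and completes the site of peptide bond formation, was also higher. Rpl10 (chromosome X, 74270812 to 74273135) had 8.57 and 11.6 CPM with gavage, against 5.78 and 6.41 CPM with ethanol alone. The log2 fold change was 0.73 (SE 0.24), with an unadjusted p of 0.0271 and an adjusted p of 0.223 in the edgeR quasi-likelihood test, and it was 0.63 without replicate 1 of ethanol alone. Rpl12, at the base of the stalk, had 5.41 and 8.37 CPM with gavage, against 4.69 and 3.14 CPM with ethanol alone. Rps27a, made as a fusion with ubiquitin, had 3.03 and 3.75 CPM with gavage, against 2.49 and 1.95 CPM with ethanol alone. Rpl3, a core protein of the peptidyl transferase centre, had 14.97 and 16.2 CPM with gavage, against 13.1 and 9.35 CPM with ethanol alone. The groups did not overlap in Rpl12, Rps27a or Rpl3, and the fold changes of 0.82, 0.61 and 0.48 had unadjusted p of 0.0592, 0.105 and 0.0930. Without replicate 1 of ethanol alone they were 1.10, 0.77 and 0.71. Rps6, the substrate of S6 kinase, had a fold change of 0.91 (SE 0.64) on the few counts given above.

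These higher members had little sequence of their own, apart from Rpl12. The unique share was 7.87% for Rpl10, 14.4% for Rpl3, 15.4% for Rps6 and 28.1% for Rps27a, against 51.0% for Rpl12. Over the 77 tested members Spearman's rho between the unique share and the log2 fold change was -0.41, and -0.54 with the length and GC offset. Of the tested members with at least 50% of their words unique, 4 were higher and 33 lower with a median of -0.46. Below that share 15 were higher and 25 lower with a median of -0.23. Without replicate 1 of ethanol alone these medians were -0.091 and 0.10. Mean CPM and fold change had a rho of -0.49 over the same 77 genes, and unique share and level were themselves related, so the measures cannot be told apart here.

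Of the other paralogs, Rpl3l, which replaces Rpl3 in striated muscle, had 3.06 and 0.0332 CPM with gavage, against 2.82 and 0.165 CPM with ethanol alone. It was high in replicate 1 of each group and next to absent in replicate 2. Skeletal muscle markers moved with it: the summed level of Acta1, Ckm, Myh4 and Tnnt3 was 510 and 0.365 CPM with gavage and 254 and 7.43 CPM with ethanol alone, with none of the 4 at 0. The fat cell markers Adipoq, Cfd and Plin1 were split by replicate in the same way. Cfd had 723 and 0 counts with gavage and 627 and 0 with ethanol alone. Car3, also listed for fat cells, was not split so, at 549 and 558 CPM with gavage against 1975 and 1924 CPM with ethanol alone. The part of muscle or fat in the level of Rpl3l and of the other members was not tested. Rpl36al had 13.4 and 11.3 CPM with gavage, against 20.0 and 13.0 CPM with ethanol alone, with overlapping groups. Rpl39l, known from testis, had at most 0.255 CPM. Rpl10l, also known from testis, had 0 counts in every library, which at a floor of 3 counts allows up to 0.0955 and 0.0996 CPM with gavage and 0.110 and 0.0991 CPM with ethanol alone, counting error only. Rpl10l and Rpl39l were too low to be tested, as were Rpl38 at 0.0991 to 0.191 CPM and Rps29 at 0.0366 to 0.365 CPM.

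Ribosomal proteins whose symbols fall outside the rule were similar to the members. Of 7 tested, 5 were lower, and 0 had an unadjusted p under 0.05. Rack1, a scaffold on the small subunit, had 283 and 245 CPM with gavage, against 382 and 254 CPM with ethanol alone, and Rps3a1 had 27.4 and 27.4 CPM with gavage, against 42.4 and 28.7 CPM with ethanol alone. Translation factors listed as known carriers of a TOP tract had 6 higher and 14 lower. Of the 14 with a RefSeq promoter, 5 (35.7%) held the tract as defined above, about the share of all tested genes. The 20 factors had a median log2 fold change of -0.20, and of 0.060 without replicate 1 of ethanol alone. Eef2, the elongation factor of translocation, had 1391 and 1174 CPM with gavage, against 1618 and 1322 CPM with ethanol alone. Pabpc1, the poly(A)-binding protein, went the other way, with 416 and 300 CPM with gavage against 191 and 209 CPM with ethanol alone.

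Most of the listed factors that build ribosomes had higher fitted values with gavage, while most ribosomal proteins did not. This list was chosen with earlier results of these data known, and its count at an unadjusted p was not planned. The lists were not compared by a test. Of 49 tested assembly factors, 44 were higher and 5 lower, with a median log2 fold change of 0.52. At an unadjusted p under 0.05, 29 of the 49 were higher and 1 lower, against the 8.91% and 9.85% of all tested genes, and 0 passed the edgeR quasi-likelihood test after adjustment. DESeq2 called 17 of them higher, against 3.94% of all tested genes, and the edgeR likelihood-ratio test called 12, against 4.13%. In 40 the gavage libraries lay above both of ethanol alone, against 27.5%. Ltv1, needed for maturation of the small subunit and the factor with the smallest p, had 37.2 and 35.9 CPM with gavage, against 13.0 and 16.6 CPM with ethanol alone, a log2 fold change of 1.31 (SE 0.19) and an adjusted p of 0.120 in the edgeR quasi-likelihood test. DESeq2 gave an adjusted p of 1.99e-05 for Ltv1. Ncl, the nucleolar protein nucleolin and the most abundant of the list, had 298 and 251 CPM with gavage, against 218 and 163 CPM with ethanol alone. The groups were apart in both genes. Markers of other cells moved in the same comparison: the 6 Kupffer cell markers were lower at an unadjusted p under 0.05, 3 of them called by DESeq2, against 9.85% and 4.9% of all tested genes. The 3 tested of 6 neutrophil markers were higher with a median log2 fold change of 1.98, and the 6 summed to 13.2 and 3.39 CPM with gavage against 2.31 and 1.85 CPM with ethanol alone. Of these 6, Ly6g and Mpo had at most 2 counts in any library. The part of these cells in the level of the assembly factors was not tested.

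The library that moved the members did not set the direction of most of this list. Replicate 1 of ethanol alone was the highest library in 8 of the 49 assembly factors, or 16.3%. For genes higher with gavage that count cannot show how far they lean on it, because a rise would lean on that library where it was low. Single factors moved either way without replicate 1 of ethanol alone, Ltv1 from a log2 fold change of 1.31 to 1.12 and Ncl from 0.52 to 0.72. Without that library 45 of the 49 were higher, with a median of 0.58. With the length and GC offset 45 were higher with a median of 0.61. Leaving out replicate 2 of gavage brought the number of higher factors at an unadjusted p under 0.05 to 16, against 6.1% of all tested genes, and leaving out replicate 1 of gavage brought it to 19, against 4.68%. Of 15 tested genes of RNA polymerase I and its factors, which make the ribosomal RNA, 11 were higher, 6 of them at an unadjusted p under 0.05, against 8.91% of all tested genes. Their median was 0.43, and without replicate 1 of ethanol alone 13 were higher with a median of 0.37. Polr1a, the largest subunit, had 44.0 and 47.4 CPM with gavage, against 23.2 and 28.01 CPM with ethanol alone, a log2 fold change of 0.83 (SE 0.17). Ubtf, the factor that binds the ribosomal DNA, had 54.0 and 66.0 CPM with gavage, against 62.6 and 68.3 CPM with ethanol alone. No test compared the assembly factors with the ribosomal proteins.

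**Figure D5:**
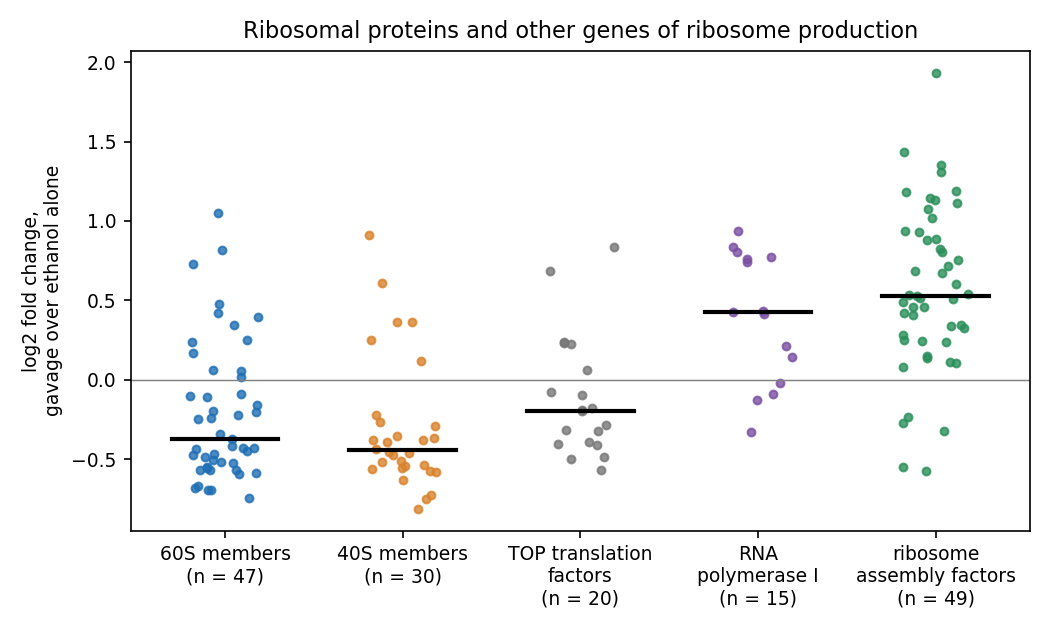
Points are fitted log2 fold changes, gavage over ethanol alone, of single tested genes in 5 lists and bars are the medians: -0.37 for 60S members, -0.44 for 40S members, -0.20 for TOP translation factors, 0.43 for RNA polymerase I and its factors and 0.52 for ribosome assembly factors. The last 2 lists lie mostly above 0 and the ribosomal proteins mostly below.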

How the data were processed

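The authors deposited 1 table of raw counts, whole numbers for each gene symbol and library with no scaling, as its values show. Per the submitters' processing notes, the tools were bcl2fastq 2.20.0.422, STAR 2.6.0a, HTSeq and edgeR, and GRCm38 was the build. The sources used here do not state the annotation, the strand setting or what was done with reads that map to several places. Reads of near-identical copies or overlapping genes may therefore have been divided, dropped or merged.

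The counts were fitted with edgeR 4.0.16 under R 4.3.3. filterByExpr (minimum count 10, minimum total count 15) and TMM scaling came first, then a 2-sided quasi-likelihood F-test between the groups, without covariates. Benjamini-Hochberg adjustment ran over 13309 genes, at a threshold of 0.05. The SE printed is the log2 fold change over the root of F. Simulated counts for these libraries held 100 genes each at true log2 fold changes of 2 and 3, of which the test called 65 and 84. Beside these true calls stood 21 false calls among 13309 genes. The members ran from -0.81 to 1.05, so the simulation does not tell how often changes of their size would be called. The common dispersion was 0.0966 (coefficient of variation 0.311). Libraries of 1 group differed by more than sampling noise, with chi-square per degree of freedom of 157 for gavage and 147 for ethanol alone. A floor of 3 counts covers counting error only.

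The members and all gene lists were chosen with earlier results of these data known. Named members were the 6 most abundant, the 6 highest and 6 lowest fold changes and the role lists (stalk, exit tunnel, 5S particle, messenger RNA channel and exit, ubiquitin fusion, paralogs, extraribosomal functions). Each further list gave its most abundant gene and its gene of smallest p. Of the members that this rule takes in, 1 is not reported here by name. Rpl9, Rpl38, Rps29, Mtor and single marker genes were named after their values were seen. Rps4l and the list of snoRNA host genes matched no symbol and were not analysed here. Lengths, GC content and coordinates of whole genes come from GENCODE on GRCm38 and were joined by symbol, with a transcript for all 81 members and a length for 98.5% of tested genes. The reference transcript was 1 principal coding transcript of middle length, so per-kb levels and the ranges of length depend on that choice.

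Alternatives changed 1 choice each, apart from the combinations named here and DESeq2, which also uses its own scaling. They were a replicate block, other scaling (size factors of DESeq2 1.42.0, upper-quartile factors, library totals), other filters (none, or 1 CPM in 2 libraries), other tests (DESeq2, limma-voom from limma 3.58.1, the edgeR likelihood-ratio test), an offset for length and GC content (loess, span 0.5), alone or with the block, and each library left out. Added after seeing the data were the offset without replicate 1 of ethanol alone and the members with at least 50% of words unique. The count of assembly factors at an unadjusted p under 0.05 was not planned either, nor was the split of members by mean CPM.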

Additional observations from a re-analysis of the deposited data

How the results depend on the processing

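Genes called over all tested genes numbered 0 in the quasi-likelihood test, 410 with the replicate block, 1177 with DESeq2, 549 with the likelihood-ratio test, 873 with the length and GC offset and the block, and 0 to 31 with 1 library left out (12 without replicate 2 of ethanol alone, 31 without replicate 2 of gavage). Members called numbered 0, but 2 with DESeq2 and 2 with the offset and the block. Members at an unadjusted p under 0.05 numbered 3, but 9 with the block, 5 with library totals, 7 with DESeq2, 7 with the offset, 11 with the offset and the block, and 1 to 47 with 1 library left out (47 without replicate 2 of ethanol alone). The median log2 fold change of the members was -0.42, but -0.022 with the offset, -0.019 with the offset and the block, 0.011 with the offset without replicate 1 of ethanol alone, and -0.78 to -0.045 with 1 library left out. The log2 ratio of their summed CPM was -0.43, but -0.12 with the offset, -0.030 with the offset without replicate 1 of ethanol alone and -0.78 to -0.073 with 1 library left out. Assembly factors higher at an unadjusted p under 0.05 numbered 29, but 19 with the likelihood-ratio test and 16 to 24 with 1 library left out. The median of the TOP translation factors was -0.20, but 0.014 with the offset, and that of the TOR signalling genes was 0.067, but -0.14 with the offset and -0.062 without replicate 1 of ethanol alone. The cause of these changes was not tested.

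Same-numbered libraries deviated together, with a correlation of 0.587, but 2 pairs do not show that the numbers pair the samples, so the block stayed an alternative. Of 828 log2 fold changes of 52 named genes under 16 settings, 775 kept their direction and side of the threshold, 14 passed it and 39 changed sign. Those that passed were Ltv1 and Myc with the block (adjusted p 0.0275 and 0.0383), with the offset and the block (0.0105 and 0.00968), with DESeq2 and with the likelihood-ratio test, Rpl10 and Rpl10a with the offset and the block (0.0308 and 0.0112), and Pabpc1, Polr1a, Rpl10a and Rps27l with DESeq2. With the offset the sign changed in Rpl11 (0.19), Rpl13a (0.13), Rpl31 (0.017), Rpl36al (0.0095), Rps19 (0.0032) and Rps28 (0.066), and with the block added the values were 0.19, 0.13, 0.021, 0.0090, 0.015 and 0.069 in that order. With the offset and without replicate 1 of ethanol alone it changed in Rack1 (0.050), Rpl11 (0.18), Rpl13a (0.13), Rpl31 (0.026), Rpl35 (0.011), Rpl36 (0.013), Rpl4 (0.052), Rplp2 (0.041) and Rps19 (0.10). Rpl3l was -0.18 with the block and -0.77 with limma-voom, and Rpl19 was -0.00029 with the block and -0.013 with upper-quartile factors. With 1 library left out the ranges that crossed 0 were -0.59 to 0.032 for Rack1, -0.54 to 0.14 for Rpl11, -0.52 to 0.082 for Rpl13a, -0.17 to 0.50 for Rpl17, -0.52 to 0.40 for Rpl19, -0.28 to 1.25 for Rpl23a, -5.31 to 3.18 for Rpl3l, -0.55 to 0.027 for Rpl4, -0.83 to 0.00050 for Rplp2, -0.90 to 0.045 for Rps19 and -0.28 to 0.013 for Ubtf. With 2 libraries a group, 1 library can set the direction of a member, and members under 1 CPM rest on few counts.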

Other observations

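Of 23 tested genes listed around TOR signalling, which sets the translation of ribosomal protein messenger RNAs, 12 were higher and 11 lower. Their median log2 fold change of 0.067 turned to -0.14 with the length and GC offset and to -0.062 without replicate 1 of ethanol alone. The list joins activators and inhibitors of TOR and also holds Myc, Max, Mnt and Mycn, so these counts give no direction of the signalling. Myc, a transcription factor of ribosome production and the gene of the list with the smallest p, had 8.09 and 15.6 CPM with gavage, against 2.89 and 2.18 CPM with ethanol alone, a log2 fold change of 2.23 (SE 0.39) and an adjusted p of 0.133 in the edgeR quasi-likelihood test. DESeq2 gave an adjusted p of 8.21e-05 for Myc. Mtor, the kinase itself, had 99.2 and 87.7 CPM with gavage, against 45.9 and 50.2 CPM with ethanol alone. Its log2 fold change was 0.96 (SE 0.18), with an adjusted p of 0.134 in the edgeR quasi-likelihood test and 0.000235 with DESeq2. Without replicate 1 of ethanol alone the fold change of Mtor was 0.87, and with the length and GC offset it was 0.67. Eif4ebp2, a repressor of cap-dependent translation and the most abundant gene of the list, had 253 and 292 CPM with gavage, against 363 and 439 CPM with ethanol alone, with an adjusted p of 0.279. In Myc, Mtor and Eif4ebp2 the groups did not overlap.

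The table also held 14 symbols of ribosomal protein pseudogenes, of which 0 were high enough to be tested. Their summed level was 0.510 and 0.498 CPM with gavage, against 1.17 and 0.826 CPM with ethanol alone. Of 4 members on the X chromosome, 2 were higher and 2 lower.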
